A study of Mus musculus with 5 samples.

Results

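Voltage-gated sodium and calcium channel genes were compared between the medial and the lateral cortex of mouse embryos. The members were chosen by name: every gene symbol for a sodium channel alpha or beta subunit, a calcium channel alpha1 subunit, a calcium channel beta subunit or a gamma subunit. The rule found 35 of the 34590 symbols in the count files, 13 for sodium and 22 for calcium channels. It does not take Scn2a1, the older symbol of the sodium channel alpha gene Scn2a, or the alpha2delta subunits, which are given below among the related genes. All libraries came from wild-type embryos of a mixed strain background at stage E14.5 (embryonic day), without treatment. There were 3 libraries of medial and 2 of lateral cortex, each made from dissected tissue. Whether replicates came from separate embryos, or whether tissue was pooled, is not stated in the labels, and the p-values speak only of sample-to-sample spread here, which may be technical.

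Voltage-gated sodium channels carry the rising phase of the action potential. Their alpha subunit forms the pore, and their beta subunits are small membrane proteins that modify gating and act in cell adhesion. Voltage-gated calcium channels let calcium in when a cell depolarises. As a group, the L-type, P/Q-type, N-type and R-type channels need a stronger depolarisation than the T-type channels. In the embryonic cortex these genes are best known from postmitotic neurons, while some, among them the T-type genes, are also studied in progenitors.

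Gene reads ranged from 27406370 to 36460274 in the medial and from 56147129 to 66981952 in the lateral libraries, so depth differed with region; a fit after thinning is given beside the first count. The cortical markers Emx1, Emx2, Tbr1, Neurod6 and Bcl11b were all present, at 34.9 CPM or more in every library. Medial library 1 stood apart: it held 97.2 CPM of the collagen gene Col1a1, 16.2 CPM of Olig2 and 42.4 CPM of the hedgehog target Gli1, against at most 4.62 CPM of Col1a1, 1.82 of Olig2 and 0.799 of Gli1 elsewhere. Among the medial libraries it also had the least of each of these cortical markers, with 118 CPM of Bcl11b against 280 and 363. The summed level of 11 neuron markers was 1313 CPM in it, against 1744 and 1977 CPM in medial libraries 2 and 3. The counts below are therefore also given without medial library 1. Levels in CPM are reads relative to library size, with sizes scaled by TMM, a trimmed mean of log ratios that corrects for library composition.

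Promoters of 3 members are printed here to show how promoters differ between genes at different places in the pattern described below: Scn1a was among the genes with the largest lateral excess, Scn8a had one of the smaller lateral excesses among the genes called, and Cacng5 had the largest fitted medial excess. Cacng5 was not called (edgeR adjusted p = 0.131), and the size of its fold came from medial library 1, as given below. Each run covers 250 bases before to 50 after a RefSeq start on build GRCm38.p6 and takes the most upstream start listed. It is written 5' to 3' on the gene's strand, with each CpG dinucleotide in capitals.

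Scn1a promoter, chr2:66440788-66441087, minus strand: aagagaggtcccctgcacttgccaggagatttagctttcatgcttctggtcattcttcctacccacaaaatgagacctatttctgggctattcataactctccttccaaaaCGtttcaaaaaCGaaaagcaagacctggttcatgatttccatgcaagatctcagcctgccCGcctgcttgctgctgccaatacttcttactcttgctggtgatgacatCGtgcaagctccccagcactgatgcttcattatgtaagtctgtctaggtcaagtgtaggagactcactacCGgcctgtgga

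Scn8a promoter, chr15:100870395-100870694, plus strand: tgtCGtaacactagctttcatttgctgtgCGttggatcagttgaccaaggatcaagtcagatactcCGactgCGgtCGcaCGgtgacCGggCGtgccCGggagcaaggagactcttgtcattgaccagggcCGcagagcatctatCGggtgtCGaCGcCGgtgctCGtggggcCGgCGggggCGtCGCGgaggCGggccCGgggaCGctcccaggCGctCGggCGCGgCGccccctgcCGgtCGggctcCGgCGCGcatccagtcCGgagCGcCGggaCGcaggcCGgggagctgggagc

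Cacng5 promoter, chr11:107915006-107915305, minus strand: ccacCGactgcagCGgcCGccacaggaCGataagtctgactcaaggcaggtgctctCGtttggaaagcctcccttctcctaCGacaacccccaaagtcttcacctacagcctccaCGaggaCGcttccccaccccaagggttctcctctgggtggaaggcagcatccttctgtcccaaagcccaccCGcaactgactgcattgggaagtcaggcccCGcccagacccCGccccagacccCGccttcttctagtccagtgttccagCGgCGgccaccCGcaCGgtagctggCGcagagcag

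The promoter of Scn1a held 5 CpG and 47.3% G and C. Scn8a, lower in medial cortex like Scn1a, had a CpG-rich promoter with 38 CpG and 70% G and C, and Cacng5 had 17 CpG. RefSeq promoters matched 26 of the 35 members by symbol, with 36 starts. The 11 starts of the 7 matched members that were lower in medial cortex ranged from 3 to 63 CpG, with a median of 11, against a median of 9 over the 36 and of 7 over all 32851 promoters in the table. Their promoters thus ran from CpG-poor to CpG-rich. A GC box, searched as GGGCGG on both strands, lay in 2 of those 11 promoters and in 13 of the 36, against 35.7% of all promoters. A TATA box, searched as TATAAA on both strands, lay in 1 of the 36, at the upstream start of Cacna1d, against 13.6% of all. Pieces of the RE1 element, the site of the repressor Rest, were searched as CAGCACC and GGACAG on both strands. Of the 36 member promoters 0 held the first and 7 the second, against 7.1% and 22.2% of all promoters. A match here is a match of letters only.

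Of the 35 members, 29 passed the filter on low counts and were tested with edgeR's quasi-likelihood test against all 16229 genes kept. Of these 29, 9 were lower in medial than in lateral cortex at a Benjamini-Hochberg adjusted p under 0.05 and 0 were higher. Over all genes tested, 5.1% were lower in medial cortex and 4.62% higher. The 9 were the sodium channel alpha genes Scn1a, Scn3a, Scn8a and Scn11a, the calcium channel pore genes Cacna1d, Cacna1e and Cacna1h, the beta subunit gene Cacnb4 and the gamma subunit gene Cacng3. Of these, Cacng3 passed the filter through the lateral libraries alone, which fixed the direction in which it could be called. The median log2 fold change of medial over lateral was −0.73 over the 29 members and 0.01 over all genes tested. Every lateral library lay above every medial library in 16 members and below in 5, and 8 overlapped. Over all genes tested, the same complete separation was seen in 26.7% with lateral above and in 26.5% with medial above. At an unadjusted p under 0.05 edgeR gave 16 members lower and 4 higher, where 16.3% of all genes were lower and 15.9% higher. DESeq2, a second count test, called these same numbers, 16 lower and 4 higher in medial cortex (Cacna1g, Cacnb2, Cacng5 and Scn4b), where it called 11.7% and 10.8% of all genes. Without medial library 1, edgeR called 11 members lower and 1, Cacng5, higher, where 6.94% and 6.27% of all genes were called. The 9 genes above were among those 11. After thinning the reads of each library to the size of the smallest, the same 9 members were lower (with 4.92% of all genes) and 0 higher (with 4.26%). In bulk tissue, fewer cells of a type and less RNA per cell cannot be told apart.

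**Figure D1:**
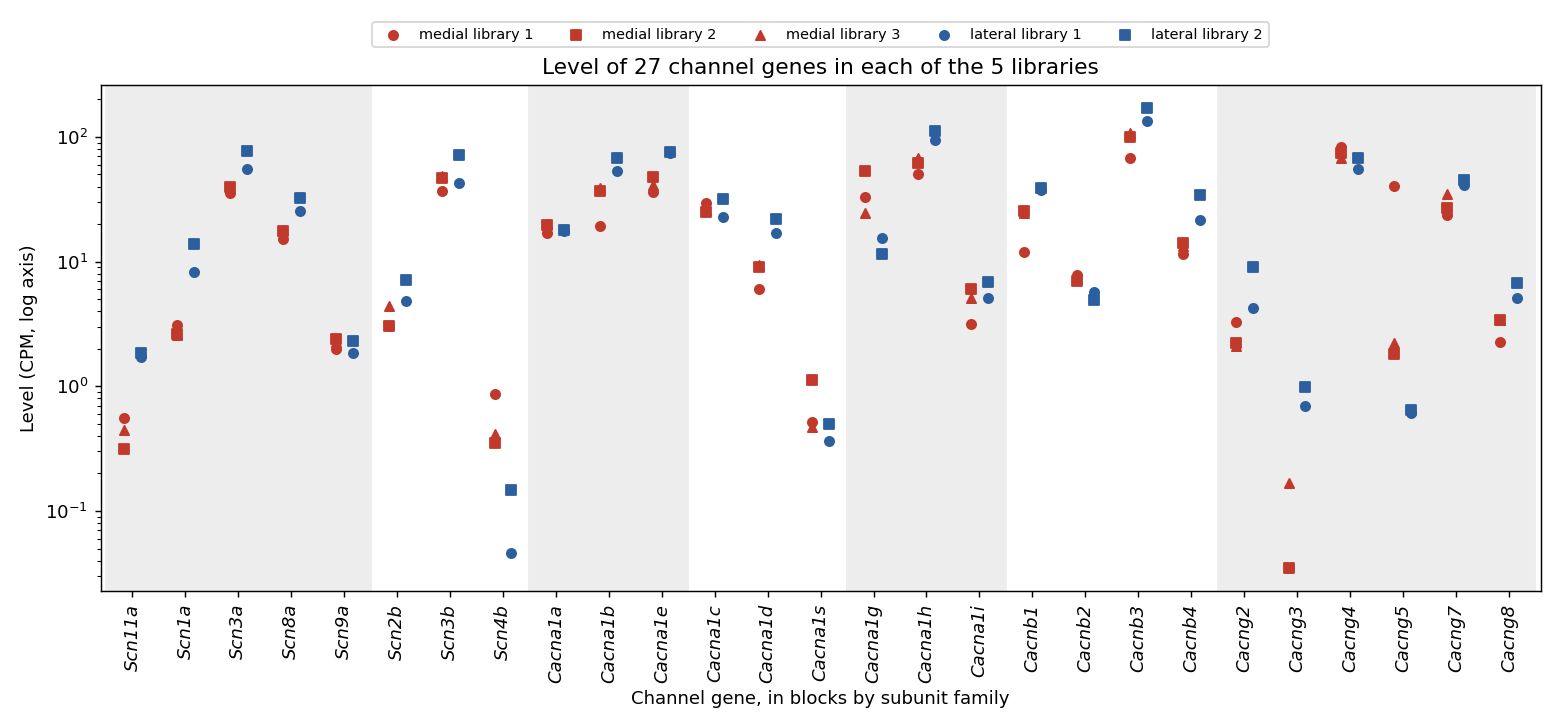
Level of 27 tested channel genes in each library, in CPM on a log axis, in blocks by subunit family; red symbols are the 3 medial and blue symbols the 2 lateral libraries. Most genes sit higher in the lateral libraries, while Cacna1g, Cacng5, Scn4b, Cacnb2 and Cacng4 sit higher in all 3 medial ones, and Cacng5 reaches 40.6 CPM in medial library 1 only.

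The calls needed most of the libraries. With edgeR, leaving out medial library 2, lateral library 1 or lateral library 2 left 0 of the members called, where 0%, 0.108% and 0% of all genes were called. In these fits 19, 19 and 12 members had an unadjusted p under 0.05, as did 24.5%, 24.4% and 14.8% of all genes. DESeq2 called 16, 13 and 3 members there, and over all genes it called 2009 of 15670, 2161 of 14898 and 695 of 15486. Leaving out medial library 3 left 1 call in edgeR, Cacng3 (3.01% of all genes), with 20 members at an unadjusted p under 0.05 (31.5% of all genes) and 18 called by DESeq2 (18.9% of all genes). Leaving out medial library 1 gave 12 calls, as above (13.2% of all genes in either direction). In all 9 genes every lateral library lay above every medial one, so leaving out 1 library could hardly turn a sign. The log2 fold changes of the 9 genes stayed negative in each of these edgeR fits. The plot of fold changes with each library left out shows their spread: Scn11a moved between −2.19 and −1.84 and Cacna1e between −0.95 and −0.75, while Cacnb4 moved between −1.42 and −0.73.

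Markers of several cell types moved with region. Over all genes tested, 5.1% were called lower and 4.62% higher in medial cortex. Of 11 neuron markers, 6 were lower and 1, Nefl, higher in medial cortex, and their summed level was 1313 to 1977 CPM in the medial and 2608 to 3290 CPM in the lateral libraries. The summed level of sodium channel alpha genes was 66.9 to 77.3 CPM in the medial and 104 to 136 CPM in the lateral libraries. Radial glia markers ran the other way, with 2 of 8 higher and a sum of 2933 to 3623 CPM against 1969 to 2303 CPM. GABAergic neuron markers had 8 of 10 lower, with 3.32 to 19.5 CPM against 74.8 to 113 CPM, and none of them was at 0 in any library. Cajal-Retzius markers had 7 of 7 higher, with 521 to 626 CPM against 163 to 200 CPM. The part of these cell types in the channel differences was not tested.

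**Figure D2:**
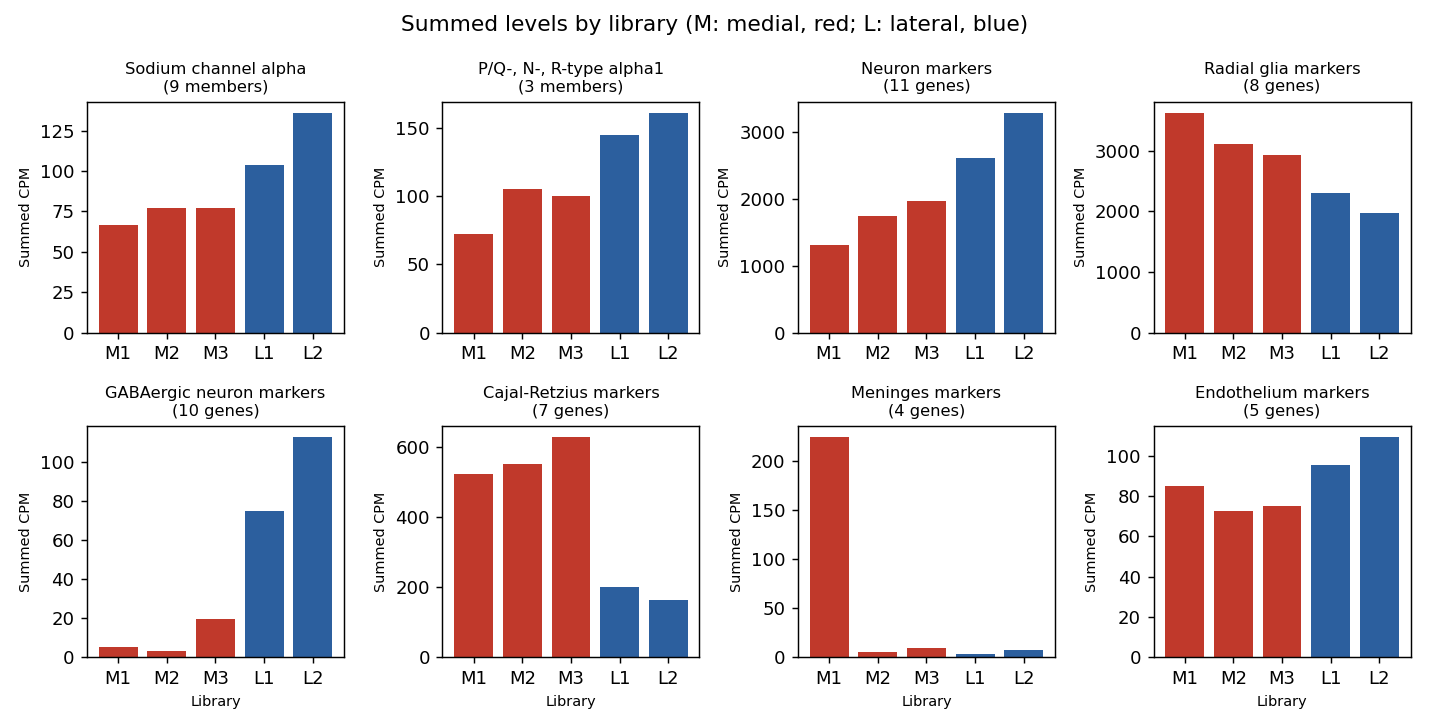
Summed CPM of channel families and marker lists in each library (M1 to M3 medial, red; L1 and L2 lateral, blue; y axes start at 0). Sodium channel alpha genes, P/Q-, N- and R-type alpha1 genes and neuron markers are higher in both lateral libraries, radial glia and Cajal-Retzius markers in all medial ones. The meninges markers reach 224 CPM in medial library 1 and at most 9.46 CPM elsewhere.

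Of 5 endothelial markers 1, Cdh5, was lower in medial cortex (summed 72.6 to 84.8 CPM against 95.3 to 109 CPM). No tested marker passed in the lists for intermediate progenitors, oligodendrocyte precursors, mural and smooth muscle cells, skeletal muscle, neural crest and sensory neurons, meninges or microglia, and no cardiac muscle marker passed the filter. In the cortical identity list Emx2 was higher and Tbr1 lower, and in the medial edge list Wnt8b, Wnt3a and Rspo1 were higher. The 5 skeletal muscle markers summed to 12.6 CPM in medial library 1, with Ttn at 9.92 CPM and Myh3 at 2.05 CPM, against at most 2.28 CPM elsewhere, and Tnnt3 was at 0 in all medial libraries. Their part in the levels of the muscle channel genes Scn4a, Cacna1s and Cacng1 was not tested.

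Sodium channel alpha subunits form the pore, and 4 of the 6 tested were lower in medial cortex (0 were higher, also at an unadjusted p under 0.05 and in DESeq2). Over all genes tested 5.1% were lower. A fit with a replicate block, described in the last section, called 0 of the 4. Scn1a, a channel used above all by inhibitory neurons in the mature brain, had 3.12, 2.62 and 2.56 CPM in medial libraries 1 to 3 and 8.29 and 13.8 CPM in lateral libraries 1 and 2. The means were 2.77 ± 0.309 CPM (SD, n = 3) for medial and 11.1 ± 3.92 CPM (SD, n = 2) for lateral cortex, so the groups lay far apart and the lateral libraries also differed from each other. The log2 fold change was −1.997 (SE 0.27, edgeR adjusted p = 0.0296), a fitted level 3.99-fold higher in lateral cortex. Scn11a, which encodes a persistent sodium channel known from pain-sensing neurons, was far less abundant per kilobase (0.0739 CPM per kb in medial and 0.3 in lateral cortex, against 0.248 and 0.992 for Scn1a). It had 16, 9 and 16 reads (0.555, 0.315 and 0.445 CPM) in the medial and 113 and 99 reads (1.72 and 1.84 CPM) in the lateral libraries. Its log2 fold change was −2.01 (SE 0.28, edgeR adjusted p = 0.0296), and the ratio of summed reads was 4.04 with a 95% exact interval from 2.88 to 5.79 that covers counting error only.

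Scn3a, the alpha subunit known for its high expression before birth, had 35.5, 39.5 and 38.7 CPM in the medial and 54.9 and 77.2 CPM in the lateral libraries. All medial libraries were close to each other and below both lateral ones, with a log2 fold change of −0.80 (SE 0.15, edgeR adjusted p = 0.0375). Scn8a, the main channel of the mature axon initial segment, had 15.2, 17.7 and 17.8 CPM against 25.4 and 32.6 CPM. The difference was like that of Scn3a in size, at −0.78 (SE 0.15, edgeR adjusted p = 0.0372). Scn9a, known from sensory neurons, had between 1.84 and 2.38 CPM in all 5 libraries, with groups that overlapped (log2 value 0.10, SE 0.22, adjusted p = 0.783).

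Scn4a of skeletal muscle, Scn7a, which encodes a sodium sensor, and Scn10a of pain-sensing neurons did not pass the filter. Each had between 0 and 7 reads per library. A count of 0 allows between 0.0456 and 0.105 CPM (3 reads), depending on the library, so differences at such levels were not detectable at this depth.

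Per kilobase of exon, Scn3a stood first among the alpha genes in both regions. Its mean level was 3.04 CPM per kb in medial and 5.30 in lateral cortex, followed by Scn2a1 with 1.80 and 2.27. Scn8a and Scn1a were lower, with 1.07 and 0.248 CPM per kb in medial and 1.84 and 0.992 in lateral cortex. Among these, Scn2a1 and Scn8a overlapped over the lateral libraries. Lengths were taken from GENCODE M21, a later annotation than the one counted, so this order is approximate.

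Of 4 sodium channel beta subunits tested, 0 passed in edgeR in either direction, where 5.1% of all genes were lower and 4.62% higher. At an unadjusted p under 0.05, 1 was lower and 1 higher, as were 16.3% and 15.9% of all genes. DESeq2 called Scn2b lower and Scn4b higher, where it called 11.7% and 10.8% of all genes. With so few genes these counts do not set the family apart from those shares. A difference between the beta and the alpha genes was not tested. Scn3b, the first of the family per kilobase with 8.10 CPM per kb in medial and 10.5 in lateral cortex, overlapped between regions, with 36.7, 47.1 and 49.0 CPM in the medial and 42.4 and 71.9 CPM in the lateral libraries. Its log2 fold change was −0.37 (SE 0.24, adjusted p = 0.343), and without lateral library 2 it was 0.06 (log2). Scn2b, which binds alpha subunits through a disulfide bond, had 3.05, 3.04 and 4.42 CPM against 4.87 and 7.11 CPM (−0.76, adjusted p = 0.113).

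Scn4b, the blocking beta subunit of resurgent sodium current, pointed the other way. It had 25, 10 and 15 reads (0.867, 0.350 and 0.417 CPM) in the medial and 3 and 8 reads (0.0456 and 0.149 CPM) in the lateral libraries. Every medial library was above every lateral one, although the counts were small and the gene passed the filter through the medial libraries alone. The log2 fold change was 2.50 (SE 0.66, edgeR adjusted p = 0.0615, range 0.0142 to 0.269 over the alternatives), and the ratio of summed reads was 5.82 with a 95% exact interval from 2.99 to 12.4 for counting error only, which leaves out the spread between libraries. The log2 fold change rose to 3.47 without lateral library 2 and was 1.83 without lateral library 1, a shift of up to 1.95 times in the fold.

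**Figure D3:**
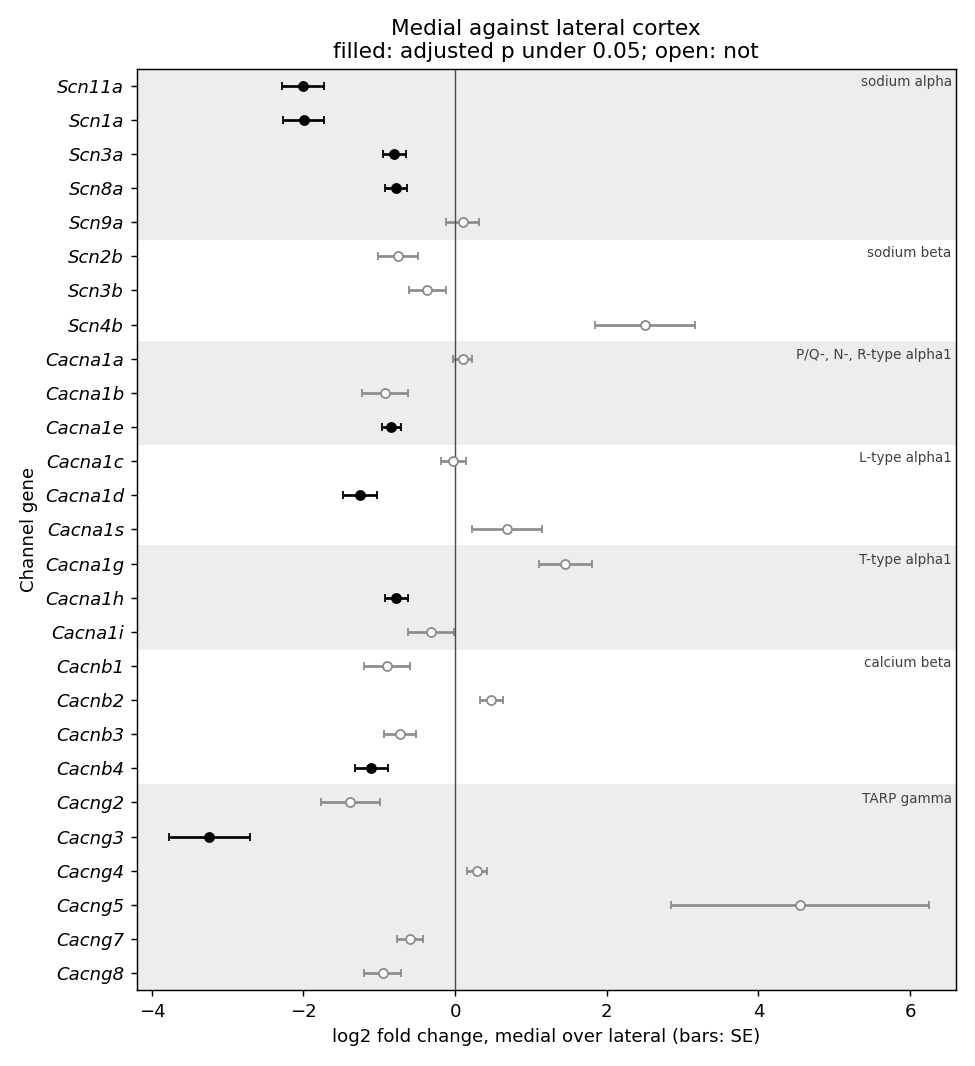
Log2 fold change of medial over lateral cortex for 27 tested channel genes (x axis), with bars of 1 SE, in blocks by subunit family (y axis); filled symbols passed an adjusted p of 0.05. The 9 filled symbols all lie to the left, from −3.24 for Cacng3 to −0.78 for Cacna1h, and Cacng5 lies farthest to the right at 4.55 with an SE of 1.71.

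The alpha1 subunits form the calcium channel pore, and 3 of 9 tested were lower in medial cortex: 1 of each of the presynaptic, L-type and T-type groups. Over all genes tested 5.1% were lower. In the presynaptic group Cacna1e, the R-type pore, had 36.2, 47.8 and 41.0 CPM in the medial and 73.9 and 75.4 CPM in the lateral libraries. The means of 41.7 ± 5.85 CPM (SD, n = 3) and 74.6 ± 1.01 CPM (SD, n = 2) lay well apart, the lateral libraries were almost equal, and the log2 fold change was −0.84 (SE 0.13, edgeR adjusted p = 0.0305). Cacna1b, the N-type pore of early synapses, was also lowest in medial libraries, with 19.3, 37.1 and 39.2 CPM against 53.1 and 68.3 CPM. It did not pass (−0.93, SE 0.30, adjusted p = 0.0977, range 0.000179 to 0.437 over the alternatives), and without medial library 1, its lowest, it passed with a smaller fold (−0.67, adjusted p = 0.0345). Cacna1a, the P/Q-type pore that dominates at mature synapses, lay between 16.8 and 20.2 CPM in all libraries with no separation. Its log2 fold change was 0.10 (SE 0.12, adjusted p = 0.619).

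Among L-type pores, Cacna1d had 6.003, 8.99 and 9.43 CPM in the medial and 17.1 and 21.8 CPM in the lateral libraries. The level was 2.38-fold higher in lateral cortex (log2 fold change −1.25, SE 0.22, edgeR adjusted p = 0.0347). Its closest relative in neurons, Cacna1c, was not separated, with 29.8, 25.1 and 25.7 CPM against 22.8 and 31.8 CPM; its fitted difference of −0.02 on the log2 scale (SE 0.17, adjusted p = 0.943) changed sign with upper-quartile scaling. Cacna1s, the pore of skeletal muscle, had 15 to 32 reads per library (0.365 to 1.12 CPM) and did not pass (0.68, adjusted p = 0.353). Cacna1f, the pore of retinal photoreceptors, had 0 to 6 reads per library and was not tested.

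The T-type pores differed in direction. Cacna1h had 49.999, 61.9 and 68.0 CPM in the medial and 94.3 and 111 CPM in the lateral libraries and was lower in medial cortex (−0.78, SE 0.15, edgeR adjusted p = 0.0375). Cacna1g had 33.1, 53.7 and 24.5 CPM in the medial and 15.4 and 11.6 CPM in the lateral libraries. Each medial library exceeded both lateral ones, medial library 2 by the most (means 37.1 ± 15 CPM, SD, n = 3, and 13.5 ± 2.65 CPM, SD, n = 2), and the fitted level was 2.74-fold higher in medial cortex. The test did not pass in edgeR (log2 fold change 1.46, SE 0.35, adjusted p = 0.0531, range 4.63e-07 to 0.326 over the alternatives) and passed in DESeq2 (adjusted p = 0.000329). Cacna1i overlapped between regions at 3.16, 6.08 and 5.12 CPM against 5.08 and 6.91 CPM (−0.32, adjusted p = 0.506). Per kilobase of exon, Cacna1h was the first of all alpha1 genes in both regions, at 6.14 CPM per kb in medial and 10.5 in lateral cortex. Cacna1g came second in medial cortex with 3.66 CPM per kb, next to Cacna1b with 3.20, while in lateral cortex Cacna1b had 6.10 and Cacna1g 1.33. The medial levels of Cacna1g and Cacna1b were within their spread over libraries, and the difference between Cacna1g and Cacna1h in response was not tested.

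Calcium channel beta subunits sit inside the cell and bring the pore to the membrane. Of 4 tested, Cacnb4 was lower in medial cortex (5.1% of all genes tested were), with 11.5, 14.0 and 13.4 CPM against 21.5 and 34.5 CPM. The log2 fold change was −1.11 (SE 0.22, edgeR adjusted p = 0.0392). Of the exon length of Cacnb4, 16% lies under exons of A430018G15Rik in GENCODE M21, and reads there cannot be assigned to either gene without strand. A430018G15Rik itself had at most 0.694 CPM in any library. Cacnb3, the first of the family per kilobase with 22.9 CPM per kb in medial and 37.9 in lateral cortex, had 67.9, 99.5 and 108 CPM against 133 and 171 CPM. Its groups did not overlap, but the test did not pass (−0.73, SE 0.21, adjusted p = 0.0786). Cacnb1 had 12.01, 25.2 and 24.6 CPM against 37.8 and 39.1 CPM (−0.90, adjusted p = 0.107), and without medial library 1 it passed (−0.62, adjusted p = 0.0199). Cacnb2, best known from the heart, had 7.84, 7.03 and 7.37 CPM against 5.72 and 4.90 CPM, higher in each medial library (0.48, SE 0.16, adjusted p = 0.0983).

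The gamma subunit genes encode 4-pass membrane proteins, most of which serve as auxiliary subunits of AMPA-type glutamate receptors (TARPs). Of the 6 TARP genes tested, Cacng3 was lower in medial cortex (5.1% of all genes tested were), but it passed the filter through the lateral libraries alone. It had 1, 1 and 6 reads (0.0347, 0.0350 and 0.167 CPM) in the medial and 46 and 53 reads (0.699 and 0.984 CPM) in the lateral libraries. The ratio of summed reads was 9.66 with a 95% exact interval from 4.72 to 23.0 for counting error only, and the log2 fold change was −3.24 (SE 0.54, edgeR adjusted p = 0.0316). Medial library 3 held most of the medial reads, and without it, with 1 read left in each medial library, the log2 fold change was −4.47. Cacng2, the gene mutated in the stargazer mouse, had 3.30, 2.24 and 2.11 CPM against 4.23 and 9.10 CPM. It did not pass (−1.39, SE 0.39, adjusted p = 0.0709) and moved to −0.74 without lateral library 2. Cacng8 had 2.26, 3.43 and 3.39 CPM against 5.09 and 6.72 CPM (−0.96, adjusted p = 0.0598), and Cacng7 had 23.5, 26.9 and 34.8 CPM against 40.9 and 44.8 CPM (−0.59, adjusted p = 0.0764). In both genes each lateral library was above each medial one.

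Cacng4 and Cacng5 lay on the other side. Cacng4 had 83.8, 74.1 and 68.2 CPM in the medial and 55.7 and 67.6 CPM in the lateral libraries, a narrow separation that did not pass (0.29, SE 0.13, adjusted p = 0.182). Per kilobase it was the first TARP gene in medial cortex, at 21.1 CPM per kb against 11.6 for Cacng7, while in lateral cortex both had similar means, 17.2 and 17.5. Cacng5 had 1170, 52 and 80 reads (40.6, 1.82 and 2.23 CPM) in the medial and 40 and 35 reads (0.608 and 0.650 CPM) in the lateral libraries. Medial library 1 alone set the fitted fold: the log2 fold change was 4.55 with all libraries (SE 1.71, adjusted p = 0.131, range 0.000203 to 0.450 over the alternatives) and 1.69 without it. In that fit the gene passed in edgeR (adjusted p = 0.0230), and medial libraries 2 and 3 were also above both lateral ones. The part of the tissue difference of medial library 1, described above by Col1a1, Olig2 and Gli1, in the level of Cacng5 was not tested. Cacng1, a subunit of the skeletal muscle calcium channel, and Cacng6 were not tested. Cacng1 had 4 to 20 reads per library, and Cacng6 had 0 reads in each medial and 1 in each lateral library.

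**Figure D4:**
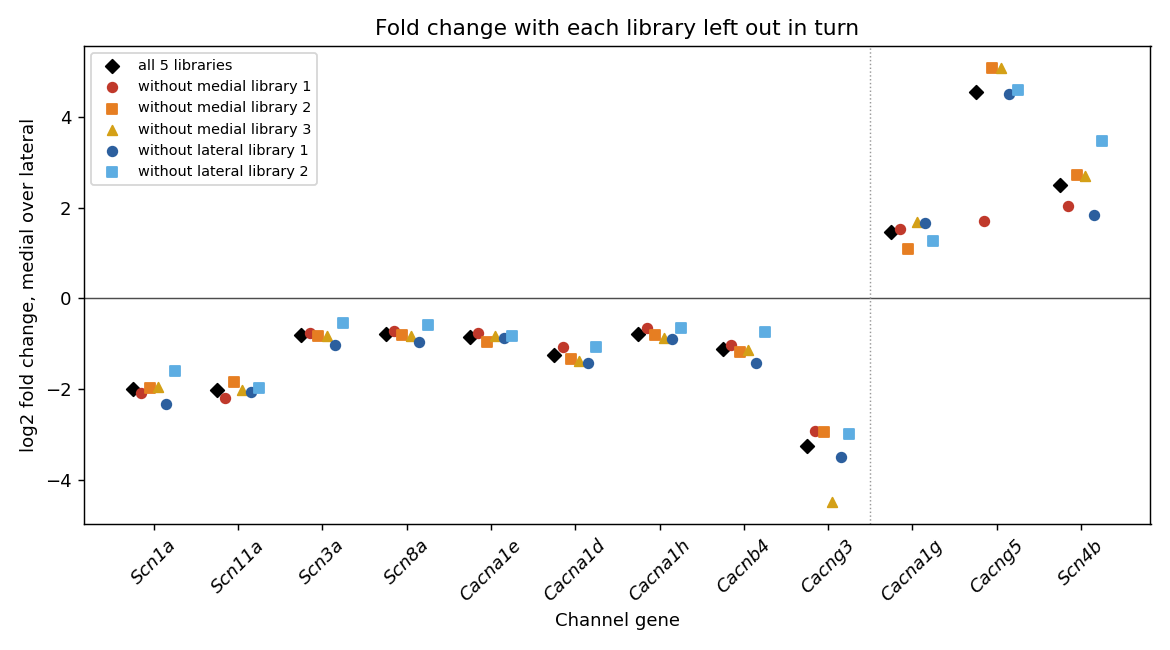
Log2 fold change of medial over lateral cortex (y axis) for the 9 genes that passed and for Cacna1g, Cacng5 and Scn4b, which did not, with all 5 libraries (diamonds) and with each library left out in turn. In the 9 genes every lateral library lay above every medial one, so their values stay below 0 almost by construction. Cacng3 reaches −4.47 without medial library 3, and Cacng5 drops to 1.69 without medial library 1.

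Summed over the members of a family, some families were higher in both lateral libraries and others overlapped. The presynaptic alpha1 genes together had 72.3, 105 and 100 CPM in the medial and 145 and 161 CPM in the lateral libraries, and the calcium channel beta genes had 99.3, 146 and 154 CPM against 198 and 249 CPM. In both families, as in the sodium channel alpha genes, each lateral library was above each medial one. Among single genes tested, 26.7% showed this separation. The T-type sums overlapped, at 86.2, 122 and 97.6 CPM against 115 and 130 CPM, with Cacna1g and Cacna1h differing in opposite directions. So did the sodium channel beta sums, at 41.4, 50.9 and 54.5 CPM against 48.1 and 80 CPM. The L-type sums were separated narrowly, at 36.3, 35.3 and 35.8 CPM against 40.3 and 54.2 CPM. The TARP sums overlapped as well, at 153, 109 and 111 CPM against 107 and 130 CPM, and the highest library, medial 1, was the one that held 40.6 CPM of Cacng5. Over all members the sums were 556, 644 and 630 CPM in medial and 758 and 941 CPM in lateral cortex. These sums weight each family by the genes with the most reads and were not tested.

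Many members lie next to each other in the genome, and neighbours did not always go the same way. On chromosome 2, Scn3a and Scn2a adjoin each other in the RefSeq order of coding genes, as do Scn1a, Scn9a and Scn7a. Scn1a was 3.99-fold higher in lateral cortex while its neighbour Scn9a overlapped between the regions. On chromosome 9, Scn2b is next to Scn4b, and their log2 fold changes were −0.76 and 2.50, neither of which passed. The TARP genes Cacng4 and Cacng5 lie side by side on chromosome 11, and Cacng7 and Cacng8 on chromosome 7. Alpha genes of this kind have similar sequences: 6.49% of the 50-base stretches in Scn3a transcripts and 4.03% of those in Scn1a also occurred in transcripts of another gene, so a small part of their reads may be shared. For Scn8a this share was 0.04%, and for Scn11a and Cacng3 it was 0%.

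Related genes from a fixed list of channel partners were measured in the same fit. Of 36 tested, 14 passed, 8 lower and 6 higher in medial cortex, against 9.72% called in either direction over all genes. Scn2a1, the remaining main brain alpha subunit, had 20.0, 24.5 and 24.2 CPM in the medial and 24.6 and 33.2 CPM in the lateral libraries. It did not pass (log2 fold change −0.33, SE 0.17, adjusted p = 0.225). The alpha2delta subunits, extracellular partners of the calcium channel pore, were split. Cacna2d1 had 108, 113 and 104 CPM against 125 and 127 CPM and did not pass (−0.22, SE 0.07, adjusted p = 0.0979). Cacna2d2 was higher in medial cortex, with 21.6, 18.7 and 19.6 CPM against 5.90 and 6.57 CPM (log2 fold change 1.68, SE 0.13, edgeR adjusted p = 0.0214). Cacna2d3 was higher too, with 24.6, 22.9 and 17.7 CPM against 7.31 and 8.60 CPM (1.45, edgeR adjusted p = 0.0296), and so was the alpha2delta-like gene Cachd1 (1.07, adjusted p = 0.0295). Cacna2d2 is also in the list of Cajal-Retzius cell markers.

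Genes that anchor sodium channels at the axon initial segment were in the list too. Ank3, which encodes the scaffold ankyrin-G, had 66.7, 81.7 and 86.5 CPM in the medial and 135 and 182 CPM in the lateral libraries (log2 fold change −1.02, SE 0.17, edgeR adjusted p = 0.0316). Nrcam, an adhesion molecule bound by it, was lower at −1.18 (adjusted p = 0.0316), and so was Ank2, an ankyrin of the axon shaft, at −0.65 (adjusted p = 0.0348). Nfasc, the other adhesion partner, did not pass (−0.75, adjusted p = 0.0877) although both lateral libraries were above all medial ones. The other genes lower in medial cortex were Fgf11, a cytoplasmic partner of sodium channels (−1.79), Unc79 of the sodium leak channel complex (−1.11), the ubiquitin ligase gene Nedd4l (−0.78), the calcium-binding regulator Cabp1 (−1.48) and Stac, an L-type channel partner (−2.52). Rest, the repressor of many neuronal genes in non-neuronal cells, was higher in medial cortex. It had 83.3, 80.2 and 78.2 CPM against 53.8 and 41.8 CPM (0.75, SE 0.12, edgeR adjusted p = 0.0318). Kcnip1, a potassium channel partner, was also higher (1.61, adjusted p = 0.0318).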

How the data were processed

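RNA was extracted with a column kit and sequenced from polyadenylated libraries without strand, per the labels. The authors deposited whole-number read counts per gene symbol, not normalised; the submitters' processing notes name BWA, STAR, HTSeq and build mm9, and versions are not given in the sources used here. HTSeq's 5 classes of reads without a gene (23.1% to 28.7% of each file) stayed out of library sizes and tests. Groups came from the sample titles.

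Counts were filtered with filterByExpr (minimum count 10, total 15), and scaled by TMM. The test was the quasi-likelihood test of edgeR (version 4.0.16, R 4.3.3; newer form, group as the only term, 3 residual degrees of freedom), with Benjamini-Hochberg adjustment over all 16229 genes and a threshold of 0.05. SE is the log2 fold change over the root of F. DESeq2 1.42.0, limma-voom 3.58.1, other scalings and filters, thinning, blocks and left-out libraries were alternatives. DESeq2 with libraries left out was added after seeing the data. Each member kept by the filter was to be named; some members and other genes enter the counts and are not reported here. Members and lists were chosen with earlier results of these data known.

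Exon lengths, overlaps and shared 50-base stretches came from GENCODE M21 (GRCm38) and promoters from RefSeq, matched by symbol.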

Additional observations from a re-analysis of the deposited data

How the results depend on the processing

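Other scalings were DESeq2 size factors, upper quartile and library size alone. With these, the older edgeR form, limma-voom, other filters or thinning to the smallest library, 8 to 10 members were called. Always 8 or 9 were lower in medial cortex, and the 1 higher call, Cacna1g, came with library size alone. These fits called 4.1% (no low-count filter) to 11.6% (at least 1 CPM in 2 libraries) of all genes tested. DESeq2 called 3550 genes (22.5% of those tested), 20 members and 22 related genes. Without medial replicate 1, DESeq2 called 2975 genes (19% of those tested) and 17 members. Leaving out 1 library in edgeR gave 0 to 2164 genes, 0 to 12 members and 0 to 15 related genes, and in DESeq2 695 to 3076, 3 to 18 and 11 to 22 (fewer samples in each fit). The replicate numbers in the titles pair 2 medial with 2 lateral libraries, and nothing in the labels says that a number marks a shared embryo or day. The deviations of same-numbered libraries from their group means had correlations of 0.0267 and −0.385. The fit with a replicate block called 1076 genes, 6 members, of which 4 were shared with the reported 9, and 12 related genes, against 6.63% of all genes. It did not call Scn1a, Scn3a, Scn8a, Scn11a and Cacna1e, so 0 sodium channel alpha genes, and it added Cacnb3 and Cacng7. A tag in the deposited names pairs other libraries, with correlations of 0.385 and 0.376. The deviations of the 2 lateral libraries are exact opposites. The tag's 0.385 is thus the −0.385 of the replicate numbers with its sign turned, and not separate evidence on the pairings. With a block by this tag 5361 genes (33% of all), 21 members (16 lower, 5 higher) and 27 related genes were called. The reported 9 were all among the 16 lower members, and Cacna1g, Cacnb2, Cacng5 and Scn4b were among the 5 higher ones. In each blocked fit a medial library had no partner, library 3 by replicate number and library 1 by tag. The region difference there rested on the 2 pairs, with fewer residual degrees of freedom than the 3 of the main fit. Signs turned in 3 members that did not pass. Cacna1c had 0.0038 with upper-quartile scaling, 0.053 with library size alone, 0.00083 with limma-voom, 0.0086 after thinning and 0.023 with the replicate block, and it ranged from −0.25 to 0.23 with a library left out in edgeR; in DESeq2 it was 0.0097 without medial library 2, 0.0013 without medial library 3 and 0.22 without lateral library 2. With a library left out, Scn3b ranged from −0.71 to 0.0602 (0.0436 in DESeq2 without lateral library 2) and Scn9a from −0.0611 to 0.27 (−0.0644 in DESeq2 without lateral library 1). Where 1 lateral library was left, it was assumed to vary like the medial ones. The 6 members left untested in the main fit had 0 to 20 reads per library. The fit without a low-count filter tested all 35 members and called only the reported 9. At so few reads, a missing call does not show equal levels.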
